A study of Mus musculus with 36 samples.

Results

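Livers of mice carrying 1 tryptophan (W) and 1 phenylalanine (F) allele of the liver X receptor alpha (LXRalpha), written W/F, were compared after treatment with T0901317, a synthetic LXR agonist, and after vehicle. Members were taken by their genotype and treatment labels, which gave 4 treated and 4 vehicle samples, 8 of the 36 in the series. The comparison itself was chosen with earlier results of these data known. The F allele was made with CRISPR and replaces the tryptophan at residue 441. The series text pairs this receptor with the symbol Nr1h2, whereas the usual symbol of LXRalpha is Nr1h3 and that of LXRbeta is Nr1h2, and both genes are reported. All 8 samples came from male mice of 11 to 12 weeks that ate a diet inducing metabolic dysfunction-associated steatohepatitis (MASH) for 4 weeks. T0901317 at 10 mg/kg, or vehicle, was given by gavage each day over the last 2 weeks. Both groups therefore shared the mutation and the diet, and only the gavage separated them. The same 2 treatments were applied on the same diet to mice with 2 W alleles (W/W) and 2 F alleles (F/F), 4 samples each, and W/F mice on chow formed an independent cohort of 4. The labels number the samples of a group 1 to 4 without stating that each is another animal. They are called mice below. The p-values and standard errors measure only the spread between samples within groups, pooled over all 9 groups of the series and not taken from these 8 alone.

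LXRalpha and LXRbeta are nuclear receptors for oxysterols that bind DNA together with a retinoid X receptor and exchange corepressors for coactivators when an agonist binds. The tryptophan replaced here lies in the ligand-binding domain. In hepatocytes LXR is known for sending sterols into bile through the half-transporters Abcg5 and Abcg8 and for driving fatty acid synthesis through Srebf1. In macrophages it is known for cholesterol efflux through Abca1 and Abcg1 and for dampening inflammatory genes. T0901317 activates both LXRs and is also known to activate the xenobiotic receptor PXR.

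RNA was sequenced to between 22700000 and 25900000 gene-assigned reads in the treated and between 23500000 and 34500000 in the vehicle W/F livers, as recovered from the steps of the deposited values, which are length-scaled transcript abundances (TPM) that sum to 1000000 in a library. A gene was called when limma's Benjamini-Hochberg adjusted p passed 0.05 on log2(TPM + 1). Of 16638 genes tested, 65.9% were called, 6.59% higher and 59.3% lower after T0901317. In the treated livers the 100 most abundant genes held 51.5% to 58.2% of that sum against 46.3% to 48.0% with vehicle. The median gene stood at -0.49 on the log2 scale as deposited and at -0.04 after each library was rescaled by its median ratio over genes. Rescaled, 23.6% of genes were called higher and 27.1% lower, and 599 genes went from called lower to called higher. All 1097 genes called higher as deposited were also called higher rescaled, and all 4514 called lower rescaled were also called lower as deposited. Changes in both scalings are therefore given for each group. Each count of a gene list below is read against these shares of all genes, as deposited or rescaled. The first principal component of the 8 libraries held 73.8% of the variance and separated treated from vehicle livers. Treated mouse 2 stood at 21.96 on it, the other treated mice at 64.7 to 78.4 and the vehicle mice at -68.6 to -46.7. Each count below was also made without treated mouse 2 in both scalings, and that count is given where it differs by over 1.5 times and by more than 1 gene.

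The promoter shared by Abcg5 and Abcg8 and that of Gpnmb, a lysosomal glycoprotein of lipid-laden macrophages, are shown because the pair was higher in every treated mouse than in any vehicle mouse and Gpnmb had the largest fall of the eligible genes. Abcg5 (chr17:84658234-84683011, minus strand) and Abcg8 (chr17:84676302-84700333, plus strand) lie head to head on GRCm38, with RefSeq starts 110 bases apart. The 300-base window of Abcg8 at chr17:84682871-84683170 (plus strand) shares 209 bases with that of Abcg5 at chr17:84682962-84683261 (minus strand). Capitals mark CCAAT. RefSeq lists a further start of Abcg8 upstream, with a window at chr17:84676052-84676351 that holds 0 matches to CCAAT.
Abcg8: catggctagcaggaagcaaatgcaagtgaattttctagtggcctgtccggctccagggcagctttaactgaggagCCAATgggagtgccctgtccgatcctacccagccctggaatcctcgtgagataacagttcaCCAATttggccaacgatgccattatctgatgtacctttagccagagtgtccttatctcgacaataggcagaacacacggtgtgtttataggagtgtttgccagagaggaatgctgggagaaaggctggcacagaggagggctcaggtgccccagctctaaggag
Gpnmb (chr6:49036546-49070929, plus strand) has its window at chr6:49036268-49036567 (plus strand), with capitals on TGACTCA, a match to TGANTCA.
Gpnmb: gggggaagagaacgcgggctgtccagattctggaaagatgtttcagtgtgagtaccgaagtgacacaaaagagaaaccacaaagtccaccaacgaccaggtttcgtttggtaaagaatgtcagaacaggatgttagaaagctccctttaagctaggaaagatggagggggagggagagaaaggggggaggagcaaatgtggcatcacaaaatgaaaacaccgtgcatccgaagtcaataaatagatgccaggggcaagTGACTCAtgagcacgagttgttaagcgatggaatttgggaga
Windows run from 250 bases before to 50 bases after the RefSeq start (GRCm38.p6), and each motif was searched on both strands of each window. CCAAT stood in 37.4% of 32851 windows of all genes. Counted by gene, with a match in any of its windows, it stood in 42.3% of the 10831 tested genes that had a window. By the same count it stood in 8 of 12 LXR target genes and 15 of 20 genes of fatty acid and triglyceride synthesis. It stood in 16 of 16 genes of cholesterol synthesis and uptake. It also stood in 11 of 21 matrix genes, 5 of 8 genes with the largest rises and 4 of 7 with the largest falls. TGANTCA stood in 7.81% of all windows and, by gene, in 6.74% of the tested genes. It stood in 4 of 21 matrix genes, 3 of 7 of the genes with the largest falls and 0 of 12 LXR target genes. Among the largest rises it stood in 1 of 8, in cholesterol genes in 2 of 16 and in fatty acid genes in 1 of 20. These matches describe letters in a window, not sites bound in these livers.

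The receptors themselves differed little in RNA. Nr1h3, encoding LXRalpha, measured 82.0, 106, 104 and 92.5 TPM in treated mice 1 to 4 and 120.0, 101, 101 and 110.1 TPM in vehicle mice 1 to 4. The groups overlapped, and its log2 fold change of -0.17 ± 0.10 (SE; limma adjusted p = 0.14) turned to 0.43 (adjusted p = 5.5e-04) after rescaling. Nr1h2, encoding LXRbeta, measured 20.3, 33.7, 27.4 and 28.7 TPM against 38.5, 39.2, 38.1 and 40.5 TPM, every treated mouse below every vehicle mouse, and its change of -0.51 ± 0.10 (adjusted p = 6.9e-05) became 0.07 (adjusted p = 0.43) when rescaled. Against 59.3% of all genes called lower, of the 12 receptors, retinoid X partners and cofactors 0 were called higher and 8 lower as deposited (median -0.44), but 4 higher and 1 lower when rescaled (median 0.14). The 1 member called lower in both was the coactivator Ncoa3 (-0.83 and -0.28).

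LXR target genes moved in both directions. Abcg5, Abcg8, Srebf1, Scd1, Fasn and Cyp7a1, known for sterol and fatty acid handling in hepatocytes, rose, and Abcg1, Lpl, Arl4c, Mertk and Pltp fell. Of the 20 on the list, 10 were called higher and 9 lower as deposited (median 0.05), and 11 higher and 5 lower when rescaled (median 0.66), against 6.59% and 59.3%, and 23.6% and 27.1%, of all genes.

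Abcg5, a subunit of the transporter that excretes sterols into bile, measured 181, 226, 226 and 270.4 TPM in treated mice 1 to 4 and 60.4, 81.3, 69.2 and 65.4 TPM in vehicle mice 1 to 4. Every treated mouse, mouse 2 included, lay above every vehicle mouse, a mean 3.27-fold higher (log2 fold change 1.69 ± 0.23, adjusted p = 3.6e-07). Its partner subunit Abcg8 measured 131, 169, 176 and 244 TPM against 34.6, 55.7, 38.1 and 34.5 TPM, again with no overlap (2.11 ± 0.27, adjusted p = 1.2e-07). Srebf1, the transcription factor of fatty acid synthesis, measured 469.5, 341, 360.3 and 413 TPM in treated mice and 80.6, 58.5, 49.9 and 58.0 TPM in vehicle mice. The lowest treated liver was 4.23 times the highest vehicle liver, and the log2 change was 2.67 ± 0.22 (adjusted p = 3.7e-11). Lpcat3, which places polyunsaturated fatty acids in phospholipids, rose by 0.65 (adjusted p = 1.6e-04), and Apoc1 and Apoe, secreted proteins of plasma lipid transport, rose by 0.75 and 0.28. The change of Apoe was 0.25 (adjusted p = 0.063) without treated mouse 1 and 0.26 (adjusted p = 0.051) without treated mouse 4. Cyp7a1, the rate-limiting enzyme of bile acid synthesis, measured 80.3, 209, 93.8 and 126 TPM against 36.4, 46.3, 29.2 and 27.1 TPM. Treated mouse 2 had the highest Cyp7a1 of the 8, and the groups did not overlap (1.77 ± 0.45, adjusted p = 9.6e-04).

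The cholesterol efflux pumps Abca1 and Abcg1 did not rise as deposited. Abca1, which loads cholesterol onto apolipoprotein A1, measured 35.8, 47.6, 38.6 and 47.0 TPM against 40.6, 59.0, 56.2 and 37.1 TPM, with overlapping groups, a change of -0.17 ± 0.15 (adjusted p = 0.33) as deposited and 0.42 (adjusted p = 0.019) rescaled. Abcg1, which exports cholesterol to high-density lipoprotein, measured 9.27, 31.8, 12.8 and 12.5 TPM against 31.3, 42.7, 49.5 and 32.9 TPM (-1.32 ± 0.24, adjusted p = 1.6e-05). Treated mouse 2 alone reached the vehicle range, and without it the change was -1.67. Lpl, which releases fatty acids from plasma triglyceride, measured 8.99, 30.2, 10.1 and 12.9 TPM against 93.9, 130.3, 144 and 109.8 TPM (-3.01 ± 0.30, adjusted p = 1.4e-09). Arl4c, Mertk and Pltp, a small GTPase, a receptor for dying cells and a phospholipid carrier, had changes of -1.997, -2.01 and -1.74. All 4 were lower in each treated mouse than in any vehicle mouse and were called lower in both scalings. Mylip, the ubiquitin ligase of the LDL receptor, had a change of -0.61 (adjusted p = 0.0030) as deposited and -0.04 (adjusted p = 0.84) rescaled. Cd5l, a secreted macrophage protein, measured 57.8, 367, 86.9 and 44.9 TPM against 223, 235, 285 and 308 TPM. Treated mouse 2 was above all vehicle mice and the others far below them, so the change of -1.44 (adjusted p = 0.0016) became -2.08 (adjusted p = 2.2e-07) without it.

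Part of the genes of fatty acid synthesis rose. Thrsp, a lipogenic protein of liver and fat, was among the 12 largest rises of all eligible genes and measured 1433, 659, 475 and 677 TPM against 82.6, 14.1, 12.2 and 18.997 TPM. Its treated values lay a mean 25.4-fold above vehicle with no overlap (4.95 ± 0.67, adjusted p = 2.1e-07; 5.55 without vehicle mouse 1). Scd1, which makes monounsaturated fatty acids, measured 2253, 1810.0, 1704 and 1834 TPM against 322, 616, 612 and 504 TPM (1.92 ± 0.30, adjusted p = 1.7e-06), and treated mouse 2 was again within the range of the others. Fasn, the fatty acid synthase, measured 94.7, 54.0, 53.5 and 59.3 TPM against 28.8, 13.1, 11.1 and 13.0 TPM (1.98 ± 0.41, adjusted p = 1.2e-04). Vehicle mouse 1 had the highest Fasn of its group, and still lay below all treated mice. The elongase Elovl6 and the glucose-sensing factor Mlxipl rose by 1.74 and 1.32. The enzymes upstream of Fasn, Acly and Acaca, did not pass the test as deposited (-0.22 and 0.11, adjusted p = 0.46 and 0.59), and rescaled they stood at 0.37 (adjusted p = 0.24) and 0.64 (adjusted p = 0.0021). Pnpla3, a triglyceride lipase and Srebf1 target, measured 2.38, 1.38, 1.42 and 2.79 TPM against 1.63, 1.09, 1.68 and 0.708 TPM, overlapping groups with a change of 0.39 ± 0.33 (adjusted p = 0.31). Gpam, which starts glycerolipid assembly, had a change of -0.99 (adjusted p = 0.0056) as deposited and -0.41 (adjusted p = 0.20) rescaled. Of 25 genes of fatty acid and triglyceride synthesis, 8 were called higher and 4 lower as deposited (median 0.36), and 19 and 0 when rescaled (median 0.87). The count of 4 lower was 2 without treated mouse 1 or 3 or vehicle mouse 3 and 1 without vehicle mouse 2.

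Cholesterol synthesis showed no common direction as deposited: of 24 genes, 3 were called higher and 4 lower (median -0.15), and 11 and 1 when rescaled (median 0.37). Among all genes 6.59% were called higher and 59.3% lower as deposited, and 23.6% and 27.1% rescaled. Fewer of this list were thus called lower than of all genes. The sterol reductase Tm7sf2 (1.34), the isomerase Ebp (0.71) and the sterol sensor Insig1 (0.69) rose in both scalings, and Mvd, an early enzyme of the pathway, fell in both (-1.27 and -0.77).

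Among lipid droplet proteins and lipases, 6 of 17 were called higher and 6 lower, and 10 and 3 when rescaled. The shares of all genes were 6.59% and 59.3%, and 23.6% and 27.1% rescaled. G0s2, an inhibitor of triglyceride lipase, measured 401, 485, 305 and 236 TPM against 99.3, 43.1, 41.9 and 75.0 TPM (2.49 ± 0.43, adjusted p = 8.6e-06), the highest value again in treated mouse 2. Fitm1, which promotes droplet formation, and Mgll, which splits monoglycerides, rose by 2.22 and 1.62. The droplet coat protein Plin3 and the droplet enzyme Hsd17b13 fell in both scalings, with changes of -1.52 and -1.18 as deposited. Plin2, the main coat protein of liver droplets, measured 224, 193, 226 and 185 TPM against 309.6, 301, 333 and 466 TPM, and its change of -0.75 (adjusted p = 6.6e-04) was -0.14 (adjusted p = 0.56) when rescaled. Of 19 apolipoproteins and proteins of lipoprotein assembly, 11 were called higher and 3 lower (14 and 1 rescaled), led by Angptl8 (1.63), an inhibitor of lipoprotein lipase, and Apoa2 (1.32), a protein of high-density lipoprotein.

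**Figure D1:**
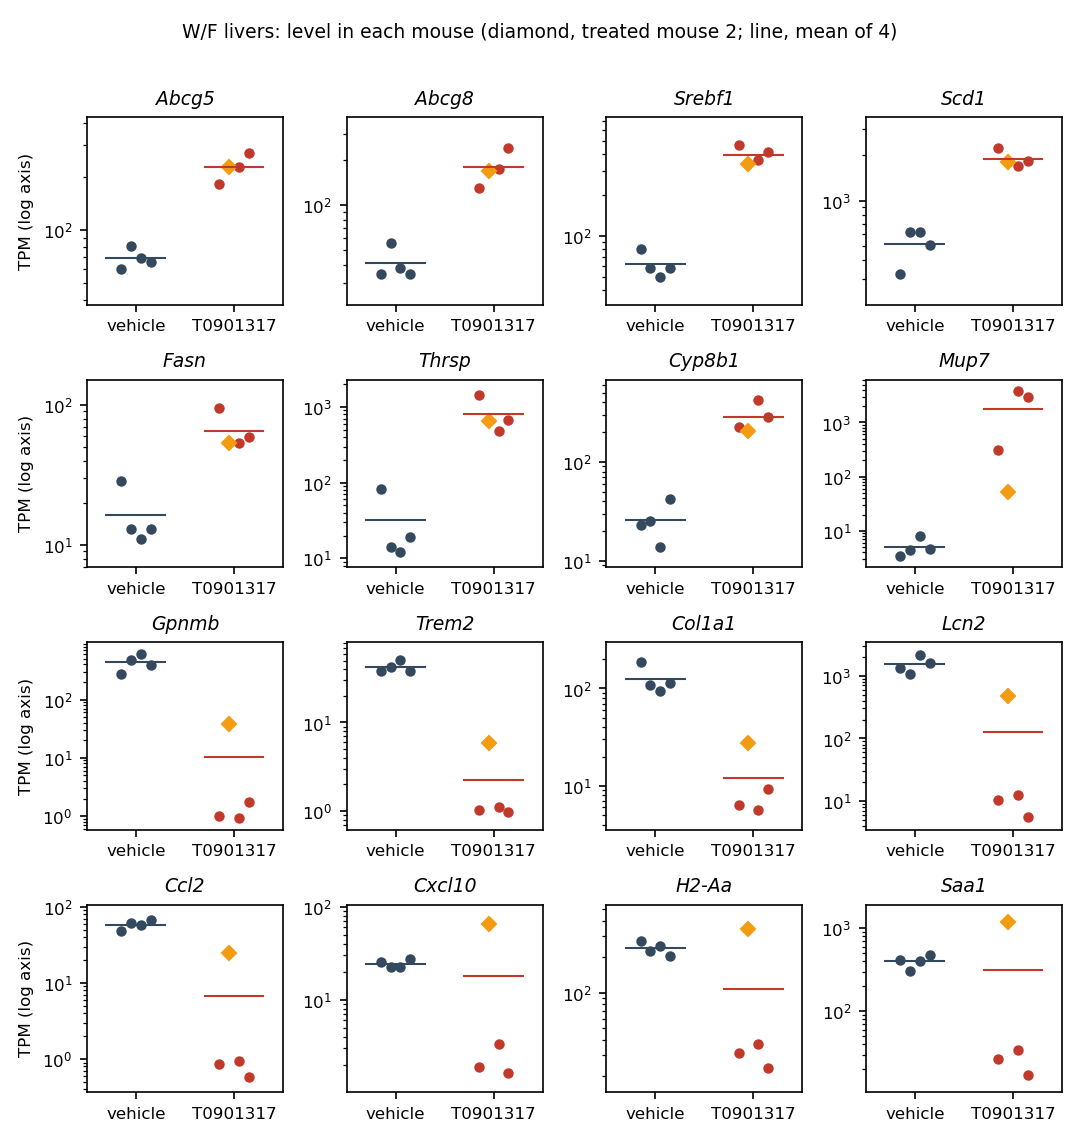
TPM (log axis) of 16 genes in each of 4 vehicle (dark) and 4 T0901317 (red) W/F livers. The line is the group mean and the diamond is treated mouse 2. In the sterol and lipid genes the diamond sits with the other treated mice, as in Srebf1 at 341 TPM, whereas in Cxcl10, H2-Aa and Saa1 it sits above the vehicle mice.

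More genes of fatty acid oxidation, bile acid synthesis and drug metabolism rose than fell. Over all genes 6.59% were called higher and 59.3% lower as deposited, and 23.6% and 27.1% rescaled. Of 25 PPARalpha targets and oxidation genes, 14 were called higher and 2 lower (median 0.42), and 22 and 2 when rescaled. The fatty acid hydroxylase Cyp4a10 measured 436, 162, 354 and 209 TPM against 10.5, 46.8, 49.8 and 32.2 TPM (3.12 ± 0.67, adjusted p = 1.5e-04), and the lowest treated liver, mouse 2, was 3.24 times the highest vehicle liver. The thioesterase Acot1 measured 90.1, 40.5, 60.6 and 65.0 TPM against 8.13, 7.996, 5.44 and 8.69 TPM (2.89 ± 0.36, adjusted p = 7.0e-08), with no overlap. The fatty acid binding protein Fabp1 rose by 1.72. The members called lower in both scalings were the hormone Fgf21 (-2.24) and the kinase Pdk4 (-1.71), which restrains pyruvate oxidation.

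Of 21 genes of bile acid synthesis and transport tested, 12 were called higher and 4 lower (median 0.43), and 16 and 2 when rescaled. Cyp8b1, the enzyme that makes cholic acid, measured 224, 206, 424 and 287 TPM against 23.1, 25.6, 13.8 and 42.3 TPM. The treated mean was 10.9-fold the vehicle mean, without overlap (3.44 ± 0.31, adjusted p = 2.2e-10). The uptake transporters Slc10a1 and Slco1a1 rose by 2.16 and 4.43, and Cyp7b1, of the alternative pathway, by 2.39. Slc51b and Abcc4, which export bile acids to blood, were called lower in both scalings (-2.32 and -1.98). Slc51b measured 0.624, 3.41, 0.916 and 2.01 TPM in treated mice and 14.6, 10.3, 13.9 and 8.69 TPM in vehicle mice, with no overlap.

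Drug-metabolising P450 genes gave 14 of 20 called higher and 0 lower (median 1.13), and 19 and 0 when rescaled. Cyp2c54 measured 484, 362, 479.7 and 583 TPM against 27.9, 55.2, 28.0 and 21.1 TPM (3.88 ± 0.30, adjusted p = 1.8e-11), the lowest treated liver 6.56 times the highest vehicle liver. Cyp2c29 and Cyp2c37 rose by 2.63 and 2.43, and the ethanol-metabolising Cyp2e1 by 2.12. Cyp3a11, a known PXR target, measured 6791, 6443, 7582 and 7304 TPM against 3483, 3532, 3089.8 and 3432 TPM, separate groups with a change of 1.054 that was at the threshold (adjusted p = 0.051) as deposited and past it rescaled (0.0042). The P450 Cyp2b10 measured 45.8, 16.1, 9.996 and 9.23 TPM against 1.77, 4.06, 4.29 and 4.13 TPM (1.97, adjusted p = 0.0029), with treated mouse 1 well above the rest.

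Male-biased genes of the growth hormone axis held several of the largest rises. Mup7, a major urinary protein, measured 305, 52.9, 3835 and 2978 TPM against 3.40, 4.44, 7.88 and 4.57 TPM. All treated mice were above all vehicle mice, but treated mice 1 and 2 were at least 9.76 times below mice 3 and 4 (6.81 ± 1.0501, adjusted p = 1.8e-06). Leaving out treated mouse 2, 3 or 4 gave 8.02, 5.96 and 6.09 for Mup7 and 6.42, 4.70 and 4.70 for Hsd3b5. Hsd3b5, a steroid dehydrogenase of male liver, measured 30.7, 5.59, 234 and 235 TPM against 0.542, 0.152, 0.525 and 0.464 TPM, in the same order (5.37 ± 0.90, adjusted p = 6.0e-06). Elovl3, a male-biased elongase, measured 69.6, 36.9, 227 and 157 TPM against 9.15, 1.97, 1.01 and 8.38 TPM (4.34 ± 0.56, adjusted p = 1.2e-07). Of 18 genes 12 were called higher and 1 lower (median 1.503), and 12 and 0 when rescaled, with the growth hormone receptor Ghr (0.90) and the circulating Igf1 partner Igfals (1.43) among those higher. Of 6 female-biased genes tested, Cyp2a4 (-3.50) and Trim24 (-0.97) were called lower in both scalings, and 4 as deposited without vehicle mouse 1. Reads of the urinary protein genes can be shared between copies: 86.7% of the 50-base stretches of Mup7 and 77.8% of those of Mup11 occur in another gene, 21.2% for Hsd3b5 and 38.0% for Cyp2a4, so their values are uncertain between copies. The same limit holds for genes of other paragraphs. The share was 25.7% for Cyp2c54, 30.1% for Cyp2c37, 29.8% for Cyp4a10, 30.4% for Acaca, 31.5% for Saa1 and 22.7% for Orm2. It was 25.8% for Pkm, 59.4% for Trf, 72.3% for Hba-a1 and 53.2% for Hbb-bs.

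The other genes with the largest rises were of mixed function. Mup11 rose by 6.84 ± 0.82 and Serpina4-ps1, a pseudogene, by 6.32 ± 0.74 (7.56 and 6.91 without treated mouse 2). Cfd, the complement protease adipsin, measured 193, 58.0, 115 and 219 TPM against 1.41, 0.510, 1.13 and 1.78 TPM, with the lowest treated mouse 32.6 times the highest vehicle mouse (5.92 ± 0.57, adjusted p = 7.0e-10). Cfd is also a fat cell marker. It was the only 1 of the 5 listed fat cell genes to pass the filter on low values, and 3 of them were at 0 in all 8 livers. Whether fat cells had a part in the rise of Cfd was not tested. Sult2a8, a bile acid sulfotransferase of male liver, measured 525, 406, 616 and 695 TPM against 18.6, 17.3, 8.57 and 11.1 TPM, with the lowest treated mouse 21.9 times the highest vehicle mouse (5.27 ± 0.30, adjusted p = 8.5e-14). Ces3b, a carboxylesterase, rose by 4.70 ± 0.41, and the unnamed transcripts Gm21320 and Gm13775 rose by 4.85 ± 0.42 (5.45 without vehicle mouse 1) and 4.51 ± 0.46. Of Gm21320, 100% of 50-base stretches occur in another gene, of Ces3b 26.2% and of Gm13775 25.6%.

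Markers of lipid-associated macrophages had the lowest median of the lists with at least 9 genes tested, and treated mouse 2 kept more of them than the other treated mice. In whole liver, fewer cells of a type and less RNA per cell cannot be told apart. Gpnmb measured 1.005, 37.7, 0.931 and 1.74 TPM in treated mice 1 to 4 and 278, 479, 597 and 385 TPM in vehicle mice 1 to 4. Treated mice 1, 3 and 4 were at least 160.3 times below the lowest vehicle mouse and mouse 2 was 7.39 times below it (-6.54 ± 0.53, adjusted p = 3.9e-11; -7.58 without mouse 2). Trem2, the lipid-sensing receptor of lipid-associated macrophages, measured 1.02, 5.89, 1.12 and 0.980 TPM against 38.1, 42.7, 50.3 and 38.3 TPM (-3.96 ± 0.27, adjusted p = 1.9e-12). Lgals3, a galectin of phagocytes, measured 6.57, 81.9, 7.75 and 5.53 TPM against 290.5, 376, 420.4 and 357 TPM (-4.70 ± 0.46, adjusted p = 9.0e-10; -5.57 without mouse 2). All 13 markers of lipid-associated macrophages were called lower as deposited (median -3.52) and 12 when rescaled (median -2.93). The exception was Plin2, which hepatocytes also express.

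Monocyte and recruited macrophage markers followed, with 12 of 13 called lower in either scaling (median -2.83 as deposited). The fungal receptor Clec7a (-4.76 ± 0.42), the endotoxin co-receptor Cd14 (-4.65 ± 0.49) and lysozyme Lyz2 (-4.14 ± 0.42) fell most, and without treated mouse 2 their changes were -5.51, -5.38 and -4.91. The monocyte chemokine receptor Ccr2 measured 0.406, 5.70, 0.384 and 0.478 TPM against 10.6, 14.3, 12.7 and 8.67 TPM, with treated mouse 2 nearest the vehicle mice but below them (-2.56). Ly6c2, the classical monocyte antigen, did not pass (-0.76, adjusted p = 0.078; -1.32, adjusted p = 4.6e-04, without treated mouse 2). Treated mouse 2 at 6.83 TPM exceeded all vehicle mice (2.76 to 3.41 TPM) and the other treated mice lay below them.

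Resident Kupffer cell genes divided. Clec4f, Timd4 and Cd163, membrane receptors found on Kupffer cells, were called higher, by 0.65, 1.83 and 1.11, while more of the list was called lower. Timd4 measured 4.36, 6.55, 7.27 and 2.93 TPM against 0.949, 0, 0.642 and 1.56 TPM, with no overlap. Clec4f measured 50.05, 117, 77.8 and 43.1 TPM against 64.6, 25.0, 34.9 and 55.4 TPM, overlapping groups, and without treated mouse 2 it was not past the threshold (0.38, adjusted p = 0.22), nor without treated mouse 3 (0.58) or vehicle mouse 2 (0.41) or 3 (0.56). The complement genes C1qa, C1qb and C1qc, which other macrophages also make, fell, with changes of -2.21, -2.69 and -2.27 (-3.28 for C1qb without treated mouse 2). Of the 14 Kupffer genes 3 were called higher and 8 lower (median -0.87), and 3 and 5 when rescaled (median -0.33). The count of lower was near the 59.3% of all genes as deposited. Besides the C1q genes, those called lower included Cd5l and members not named here.

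Inflammatory cytokines and sensors were lower almost throughout: 25 of 27 were called lower and 0 higher (median -2.19), 24 and 1 when rescaled. The shares of all genes called lower were 59.3% as deposited and 27.1% rescaled. The monocyte chemokine Ccl2 measured 0.855, 24.9, 0.951 and 0.585 TPM against 48.1, 60.6, 57.0 and 66.0 TPM. Treated mouse 2 was at least 26.2 times the other treated mice and below every vehicle mouse (-4.07 ± 0.56, adjusted p = 3.2e-07). The receptor Tlr2 (-3.06) and the neutrophil chemokine Cxcl1 (-3.21) also fell. Without treated mouse 2 the changes of Ccl2, Tlr2 and Cxcl1 were -5.03, -3.65 and -3.88. Tnf, the inflammatory cytokine, measured 0.0540, 8.29, 0.462 and 0.580 TPM against 5.92, 6.10, 7.80 and 6.20 TPM. Treated mouse 2 had the highest Tnf of the 8 livers, and without it the change of -1.78 was -2.47. Cxcl10, a chemokine induced by interferon, measured 1.89, 65.3, 3.37 and 1.604 TPM against 25.3, 22.5, 22.6 and 27.4 TPM, so that treated mouse 2 was above and the other 3 below all vehicle mice (-1.89 with and -2.99 without it).

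Acute phase proteins showed the same division. Lcn2, an iron-withholding protein, measured 10.5, 471, 12.5 and 5.62 TPM against 1328, 1063, 2117 and 1599.8 TPM, and the treated mice other than mouse 2 were at least 85.03 times below the lowest vehicle mouse (-5.81 ± 1.051, adjusted p = 1.8e-05). The change of Lcn2 was -7.197 without treated mouse 2 and -5.14 without treated mouse 4. The serum amyloid Saa1 measured 26.8, 1188, 34.6 and 17.0 TPM against 419.6, 305, 404 and 475 TPM. Treated mouse 2 was the highest of the 8 and the other treated mice the lowest, and the change of -2.55 (adjusted p = 0.069) was -3.93 (adjusted p = 0.0042) without it. Of 17 acute phase genes 9 were called lower and 0 higher, 6 and 2 when rescaled, and 14 and 0 without treated mouse 2. The 9 of 17 lay under the 59.3% of all genes called lower. Steap4 (-2.55), Orm2 (-3.91) and Hpx (-1.87) had the largest falls after Lcn2, with Orm2 at -5.16 without treated mouse 2 and -3.23 without treated mouse 4. They are a metal reductase, a plasma drug-binding glycoprotein and the haem carrier.

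MHC class II genes, which antigen-presenting cells use to show peptides to T cells, were called lower in 8 of 9 as deposited (median -1.63), in 3 when rescaled (median -1.02) and in 9 without treated mouse 2 (median -2.46). With treated mouse 2 left out and rescaled 8 were called lower, and in a fit of the 8 W/F libraries alone, as deposited, 2 were. The alpha chain H2-Aa measured 31.1, 341, 36.8 and 23.2 TPM against 271, 225, 249 and 202 TPM (-2.07 ± 0.55, adjusted p = 0.0016). The invariant chain Cd74 measured 113, 1372, 162 and 98.2 TPM against 975, 756, 792 and 793 TPM (-1.88 ± 0.55, adjusted p = 0.0036). In both, treated mouse 2 lay above all vehicle mice and the other treated mice below them, and without it the changes were -2.94 and -2.75. Interferon-stimulated genes were called lower in 15 of 20 as deposited, in 6 rescaled, where 1, Bst2, was higher, and in 19 without treated mouse 2 (11 with rescaling as well). Of all genes 59.3% were called lower as deposited and 27.1% rescaled, and the 6 of 20 rescaled lay near that share. Oas2 (-1.69), Oasl2 (-1.59) and Mx1 (-1.51), antiviral proteins, had the largest falls.

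Neutrophil markers were called lower in 10 of 12 in both scalings, led by the calprotectin subunits S100a8 (-3.33) and S100a9 (-3.20). Of 12 T, B and NK cell markers tested, 3 were called lower as deposited, under the 59.3% of all genes, and 0 lower and 1 higher rescaled. The 3 became 7 without treated mouse 2 (5 rescaled) and 5 without vehicle mouse 1, but 0 without treated mouse 1 or 4 or in a fit of the 8 libraries alone, and 1 without treated mouse 3 or vehicle mouse 3 or 4. The cytotoxic granule protease Gzmb measured 0.125, 7.02, 0.916 and 1.07 TPM against 0.377, 1.66, 1.48 and 0.941 TPM, highest in treated mouse 2, with a change that did not pass (0.26, adjusted p = 0.55).

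Matrix and fibrosis genes were lower without exception as deposited, 32 of 32 (median -2.04), against 59.3% of all genes. Rescaled, 31 of 32 were called lower (median -1.51), against 27.1% of all genes, and fibronectin (Fn1, -0.12, adjusted p = 0.51) was the exception. Col1a1, the main chain of fibrillar collagen, measured 6.36, 27.5, 5.66 and 9.20 TPM against 186, 109, 93.1 and 115 TPM. Treated mouse 2 was the highest of its group and still 3.38 times below the lowest vehicle mouse (-3.49 ± 0.39, adjusted p = 1.1e-08). Timp1, an inhibitor of matrix proteases, measured 0.299, 6.18, 0.488 and 0.321 TPM against 50.4, 46.1, 42.2 and 48.9 TPM (-4.53 ± 0.36, adjusted p = 3.5e-11). The macrophage elastase Mmp12 (-4.78 ± 0.35), the collagen chains Col3a1 (-3.09 ± 0.35) and Col1a2 (-3.04 ± 0.33) also fell. Without treated mouse 2 the changes of Timp1 and Mmp12 were -5.13 and -5.38. All 15 stellate cell and myofibroblast markers were called lower as deposited and 14 when rescaled. They included Lrat, the retinol-esterifying enzyme of quiescent stellate cells (-1.21), and Acta2, the smooth muscle actin of myofibroblasts (-1.66).

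Bile duct markers were called lower in 13 of 13 as deposited and 11 rescaled, and here treated mouse 2 did not stand apart. Epcam, an adhesion molecule of duct epithelium, measured 4.16, 4.15, 3.82 and 5.92 TPM against 26.9, 32.2, 16.4 and 15.5 TPM (-2.06 ± 0.30, adjusted p = 7.5e-07). The keratin Krt19 measured 3.10, 2.56, 2.33 and 4.05 TPM against 16.4, 14.0, 8.27 and 9.52 TPM (-1.67 ± 0.22, adjusted p = 1.4e-07). In both genes every treated mouse was below every vehicle mouse, with mouse 2 inside the range of the others. Spp1, osteopontin, a marker of both duct cells and lipid-associated macrophages, measured 108, 265, 90.3 and 148 TPM against 1526, 1198, 1121 and 1125 TPM (-3.13 ± 0.29, adjusted p = 3.7e-10).

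Lysosome and phagocytosis genes were called lower in 25 of 26 (22 rescaled), led by the proton pump subunit Atp6v0d2 (-4.36 ± 0.39), the tetraspanin Cd63 (-4.16 ± 0.34) and the protease Ctss (-4.04 ± 0.42; -4.77 without treated mouse 2). Cell cycle genes were called lower in 23 of 25 (21 rescaled). The proliferation marker Mki67 measured 0.378, 2.54, 0.161 and 0.312 TPM against 4.55, 5.31, 5.14 and 3.30 TPM (-1.74, adjusted p = 5.5e-07). The cell cycle inhibitor Cdkn1a fell with the genes of cycling cells, with 2.35, 7.74, 3.26 and 1.796 TPM against 29.2, 30.8, 38.7 and 60.8 TPM (-3.18, adjusted p = 4.8e-07). In both, treated mouse 2 had the highest level of its group and stayed below the vehicle mice.

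Genes of fetal liver or of other epithelia that vehicle livers expressed were low after T0901317. Ly6d, a surface protein of squamous epithelium and B cells, measured 4.16, 32.1, 3.06 and 2.81 TPM against 565, 303, 591 and 929.5 TPM (-6.27 ± 0.51, adjusted p = 3.7e-11; -7.01 without treated mouse 2). Sprr1a, a protein of cornified epithelium, measured 0.220, 1.96, 0 and 0.354 TPM against 109, 83.3, 112 and 182 TPM (-6.31 ± 0.58, adjusted p = 3.1e-10). H19, an imprinted noncoding RNA of fetal liver, measured 1.45, 4.20, 1.10 and 1.16 TPM against 77.0, 72.0, 126 and 101 TPM (-5.07 ± 0.41, adjusted p = 4.3e-11). The lowest vehicle liver was 9.42, 42.4 and 17.2 times the highest treated liver, which was mouse 2 in each of these genes. Of 9 such genes tested 8 were called lower in both scalings, the exception being the glypican Gpc3 (-0.41, adjusted p = 0.073; -0.54, adjusted p = 0.031, without vehicle mouse 3). Gm11843, an unnamed transcript, completed the 12 largest falls (-5.72 ± 0.44), and 26.3% of its 50-base stretches occur in another gene.

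**Figure D2:**
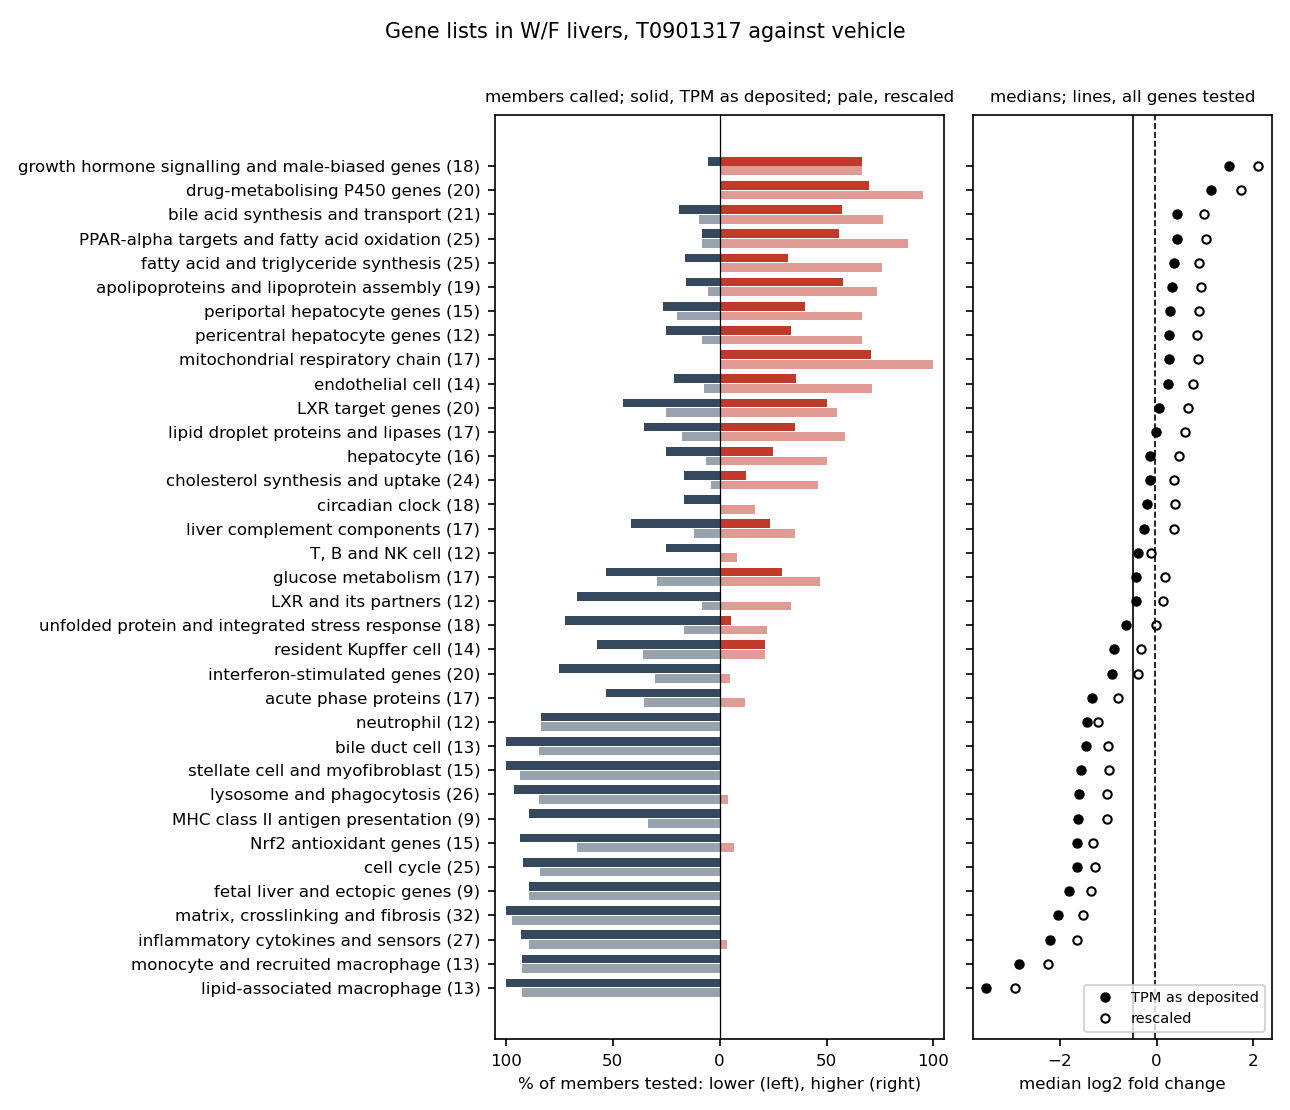
For each gene list with at least 9 genes tested (their number in brackets), the left panel gives the percentage of members called lower (left) and higher (right) after T0901317 in W/F livers, solid as deposited and pale rescaled, and the right panel gives the median log2 fold change (filled as deposited, open rescaled) with lines for all genes tested (solid -0.49, dashed -0.04). Among these lists that of lipid-associated macrophages has the lowest median and the male-biased list the highest.

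The summed TPM of each marker list places these counts on 1 scale. The 13 lipid-associated macrophage markers summed to 626, 1322, 628 and 633 TPM in treated mice 1 to 4 and to 4924 to 5572 TPM in vehicle mice. Monocyte and recruited macrophage markers summed to 147, 1066, 159 and 121 TPM against 3205 to 4251 TPM. In both, treated mouse 2 was the highest treated liver and below the vehicle range. Kupffer cell markers summed to 319, 1356, 431 and 274 TPM against 1477 to 1698 TPM, and T, B and NK cell markers to 7.23, 45.8, 11.3 and 7.83 TPM against 14.6 to 24.3 TPM. For the lymphocyte list treated mouse 2 was above the vehicle range and the other treated mice below it. Stellate markers summed to 213, 394, 222 and 256 TPM against 878 to 1111 TPM, and bile duct markers to 139, 297, 127 and 188 TPM against 1213 to 1655 TPM. Hepatocyte markers, which define the tissue, summed to 83333, 72359, 94748 and 96766 TPM against 85765 to 95919 TPM, lowest in treated mouse 2. Endothelial markers summed to 171 to 224 TPM in treated and 193 to 271 TPM in vehicle livers, overlapping ranges. Markers of exocrine pancreas and skeletal muscle summed to under 1 TPM in each of the 8. The part of these cell type markers in the other gene changes was not tested.

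**Figure D3:**
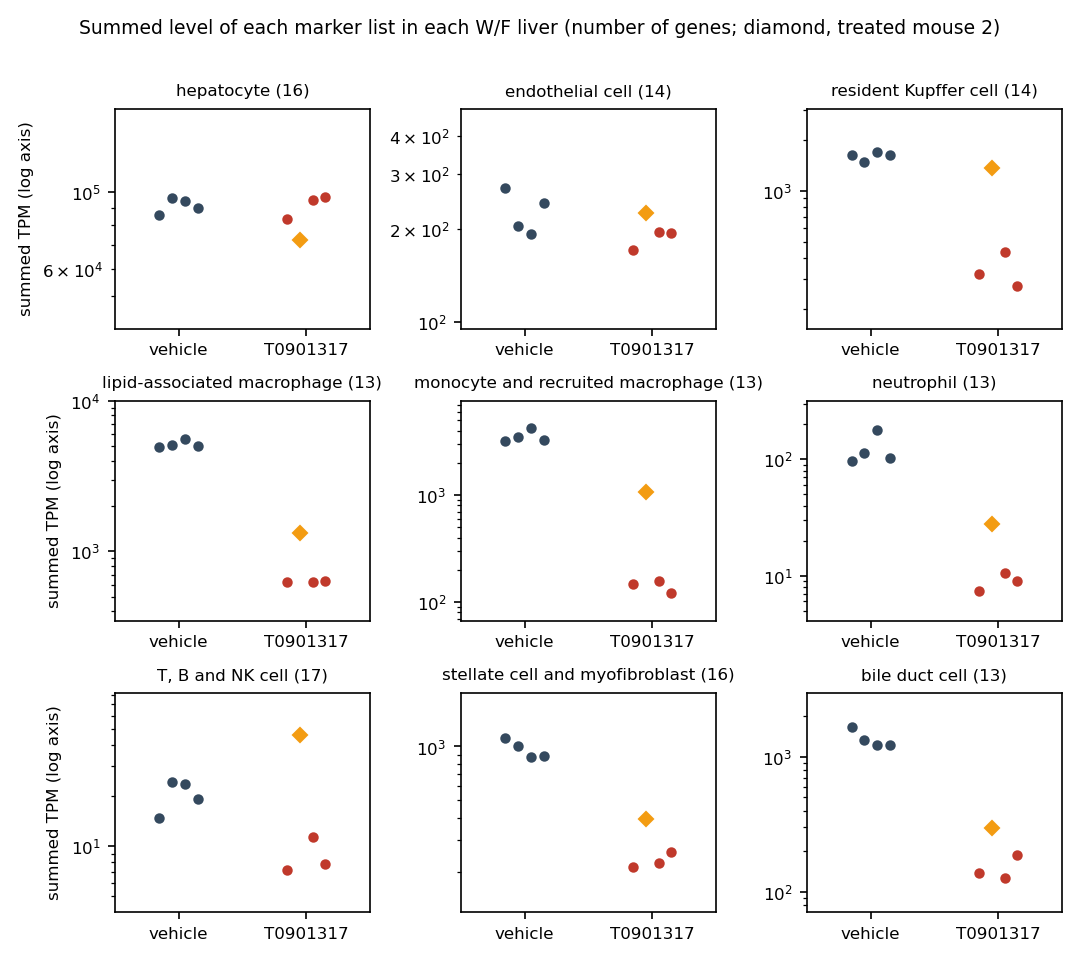
Summed TPM (log axis) of 9 marker lists (number of genes in brackets) in each vehicle (dark) and T0901317 (red) W/F liver, the diamond being treated mouse 2. Macrophage, neutrophil, stellate and bile duct sums are separate between groups, and in the T, B and NK cell list the diamond at 45.8 TPM is the highest of the 8.

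Treated mouse 2 was then placed between the vehicle mice and the other treated mice list by list. Place was measured on the log2 scale for genes called in the fit without the mouse placed. The vehicle mean was 0 and the mean of the other 3 treated mice 100, and the list's median was taken. Over all genes treated mice 1, 3 and 4 stood at 129.9%, 99.2% and 95.3%, as deposited only. Each was placed with the genes of its own fit and against a mean that included mouse 2. Over all genes of the fit without it, mouse 2 stood at 73.8% (66.9% rescaled). Its place was 97.2% for bile duct markers, 94.3% for lipid droplet genes, 87.0% for cholesterol synthesis, 82.0% for bile acid genes, 81.4% for fatty acid synthesis and 73.1% for stellate markers. It was 57.5% for lipid-associated macrophages, 33.5% for monocytes, 30.6% for inflammatory genes and 10.9% for acute phase genes. For interferon-stimulated genes it was 0.601%, the vehicle mean, and for MHC class II genes -26.9%, beyond the vehicle mean on the side away from the other treated mice. In the same library Abcg5 stood at 101%, Scd1 at 95.8% and Srebf1 at 90.1%, but the LXR target list they belong to stood at 58.8%. Other lists expressed in hepatocytes were also low: apolipoproteins at 60.6%, male-biased genes at 61.7% and the respiratory chain at 51.8%. Rescaled, cholesterol synthesis stood at 59.6%. Lipid and immune lists therefore did not divide cleanly. These places describe 1 library and carry no test, and the choice of genes used the same mice that set the scale.

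**Figure D4:**
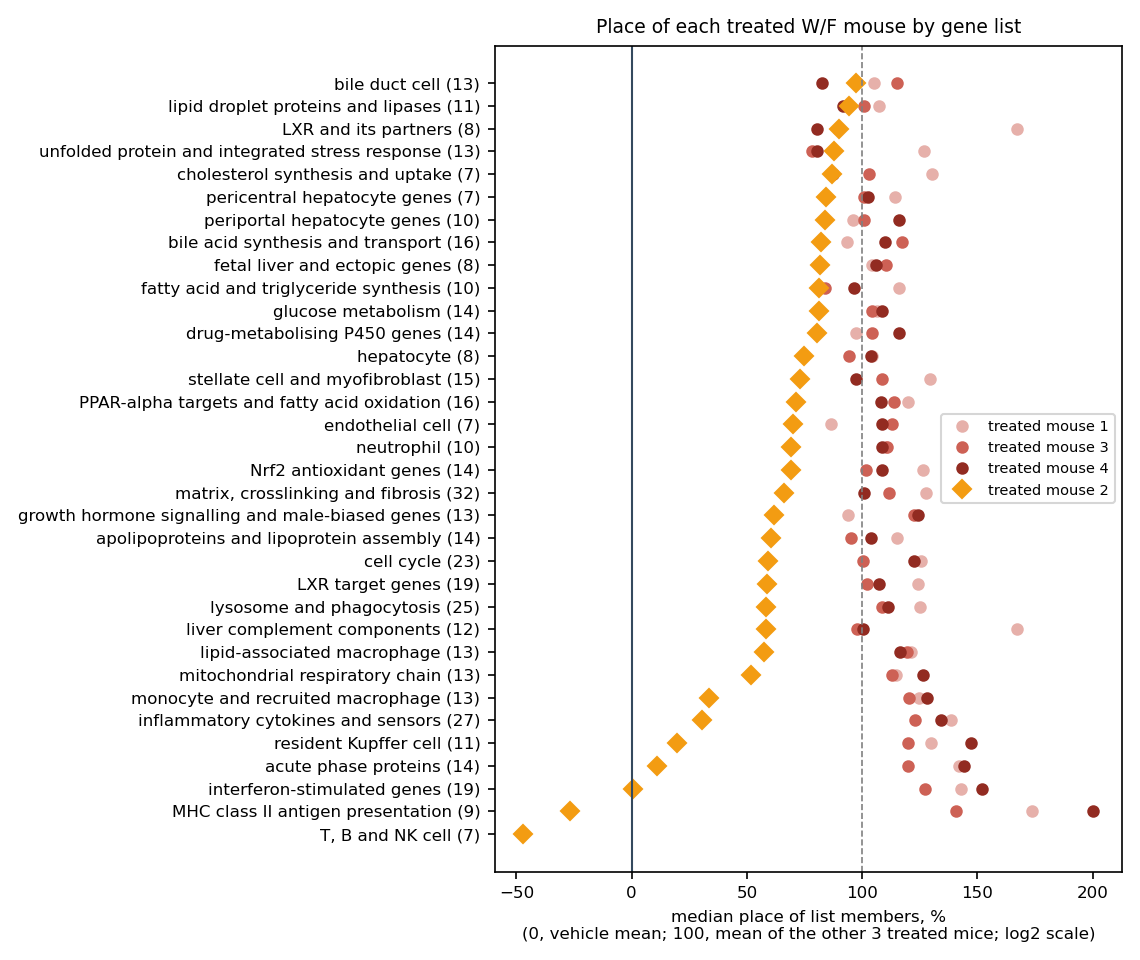
Median place of each treated W/F mouse on the log2 scale between the vehicle mean (0%) and the mean of the other 3 treated mice (100%) for each gene list with at least 6 genes for mouse 2 (their number in brackets; medians of fewer than 3 genes are not drawn for the other mice). Among these lists mouse 2 (diamond) spans from -46.9% for T, B and NK cell markers to 97.2% for bile duct markers.

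Whether the response of W/F livers differed from that of W/W and F/F livers was tested as the difference of the 2 fold changes in the same fit. It was called for 58.5% of genes against W/W (9726 genes) and for 19.2% against F/F. Rescaled, it was called for 7312 genes against W/W and 2403 against F/F. It was positive for 9.02% and 8.40% of the called genes, and for 45.4% and 46.6% when rescaled. The differences of single genes below are as deposited. When rescaled, 24 of 29 genes followed against W/W kept their side of the threshold and any called direction. Against F/F 27 of 28 did. The count against F/F was 3191 genes, 5156 with array quality weights and 1907 without treated W/F mouse 1. The log2 change of Abcg5 was 1.69 ± 0.23 in W/F livers, 0.39 ± 0.23 in W/W and 1.71 ± 0.23 in F/F. The difference from W/W was 1.2999 ± 0.33 (adjusted p = 0.0013) and that from F/F -0.02 ± 0.33 (adjusted p = 0.98). For Abcg8 the difference from W/W was 1.63 ± 0.39 (adjusted p = 6.6e-04). Srebf1 had changes of 0.88, 2.67 and 2.43 in W/W, W/F and F/F, a difference from W/W of 1.79 ± 0.31 (adjusted p = 1.3e-05) and from F/F of 0.24 ± 0.31 (adjusted p = 0.61). The vehicle levels from which these changes started differed: in W/F, W/W and F/F livers Srebf1 averaged 61.8 ± 13.2, 398 ± 171 and 23.8 ± 1.93 TPM with vehicle (SD, n = 4). Treated levels were 396 ± 57.7, 675 ± 33.6 and 133 ± 15.1 TPM in that order.

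The changes of Scd1 were 1.51, 1.92 and 5.36 in W/W, W/F and F/F, and the difference of W/F from F/F was -3.44 ± 0.42 (adjusted p = 5.8e-06). Its treated mean was 1900.2 ± 242 TPM in W/F, 21770.0 ± 410.0 TPM in W/W and 583 ± 85.6 TPM in F/F. Pnpla3 rose in W/W livers by 4.53 and had a change of 0.39 in W/F, a difference of -4.14 ± 0.47 (adjusted p = 3.1e-08). Abcg1 had changes of 1.36, -1.32 and 0.38, and W/F differed from W/W by -2.67 ± 0.33 (adjusted p = 1.3e-07) and from F/F by -1.7 ± 0.33 (adjusted p = 9.5e-04). The Kupffer genes Cd5l and Clec4f had changes of -1.44 and 0.65 in W/F against 5.49 and 4.53 in F/F, differences of -6.93 ± 0.54 (adjusted p = 1.5e-09) and -3.88 ± 0.39 (adjusted p = 2.2e-07).

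The change of Gpnmb was -6.54 ± 0.53 in W/F, against 0.07 ± 0.53 in W/W and -1.52 ± 0.53 in F/F. The differences were -6.61 ± 0.75 (adjusted p = 2.9e-08) and -5.02 ± 0.75 (adjusted p = 5.6e-05). Its vehicle mean was 435 ± 136 TPM in W/F, 519 ± 59.2 TPM in F/F and 1.18 ± 1.25 TPM in W/W. Trem2 and Col1a1 differed from F/F by -3.004 ± 0.38 (adjusted p = 7.2e-06) and -2.11 ± 0.56 (adjusted p = 0.0090). Lcn2 did not pass against F/F (-4.04 ± 1.49, adjusted p = 0.054) with all mice and passed without treated mouse 2 (-5.42, adjusted p = 0.0024) or without treated F/F mouse 3 (-4.28, adjusted p = 0.0465). Without treated W/F mouse 2 the differences of Gpnmb were -7.65 and -6.06.

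Among eligible genes the largest positive differences from W/W were those of Serpina4-ps1 (9.53), Mup7 (9.50), Serpina1e (9.04), Mup11 (8.91) and Hsd3b5 (8.06). Mup7 averaged 3713 ± 1694 TPM with vehicle and 894 ± 735 TPM with T0901317 in W/W livers, and 5.07 ± 1.94 and 1792 ± 1899 TPM in W/F livers. The largest negative differences were those of Ly6d (-10.78), Sprr1a (-8.80), Cyp2a4 (-8.72), Gstm3 (-7.27) and Fabp5 (-6.998). The falls of Ly6d, Sprr1a, Cyp2a4 and Gstm3 in W/F livers themselves were smaller, -6.27 for Ly6d and -3.57 for Gstm3. Part of each of these differences was therefore a rise in W/W livers. Against F/F the largest differences were those of Mup7 (8.23), Mup15 (7.18), Cfd (6.27), Hsd3b5 (5.81) and Serpina4-ps1 (4.79) on the positive side. On the negative side stood Cd5l, Sprr1a (-5.998), Ly6d (-5.34), Cyp2a4 (-5.25) and H2-M2 (-5.14), a nonclassical class I antigen. Without treated mouse 2 the differences from W/W were 10.13 for Serpina4-ps1, 10.70 for Mup7, 9.63 for Mup11, 9.11 for Hsd3b5, -11.51 for Ly6d and -7.94 for Gstm3. Those from F/F were 9.43 for Mup7, 8.25 for Mup15, 6.86 for Hsd3b5, 5.38 for Serpina4-ps1, -6.07 for Ly6d and -5.82 for H2-M2. Without treated W/F mouse 3, treated W/F mouse 4 or treated W/W mouse 2, Mup7 differed from W/W by 8.65, 8.77 and 8.49. Hsd3b5 then differed by 7.39, 7.39 and 7.30. Serpina4-ps1 differed by 8.94 without treated W/W mouse 2, and Mup7 by 10.09 without treated W/W mouse 3. Without treated W/F mouse 3 or 4 the differences from F/F were 7.38 and 7.50 for Mup7. They were 6.55 and 6.59 for Mup15 and 5.14 in both cases for Hsd3b5. Of Mup15, Serpina1e and Gstm3, 100%, 34.6% and 28.8% of 50-base stretches occur in another gene.

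**Figure D5:**
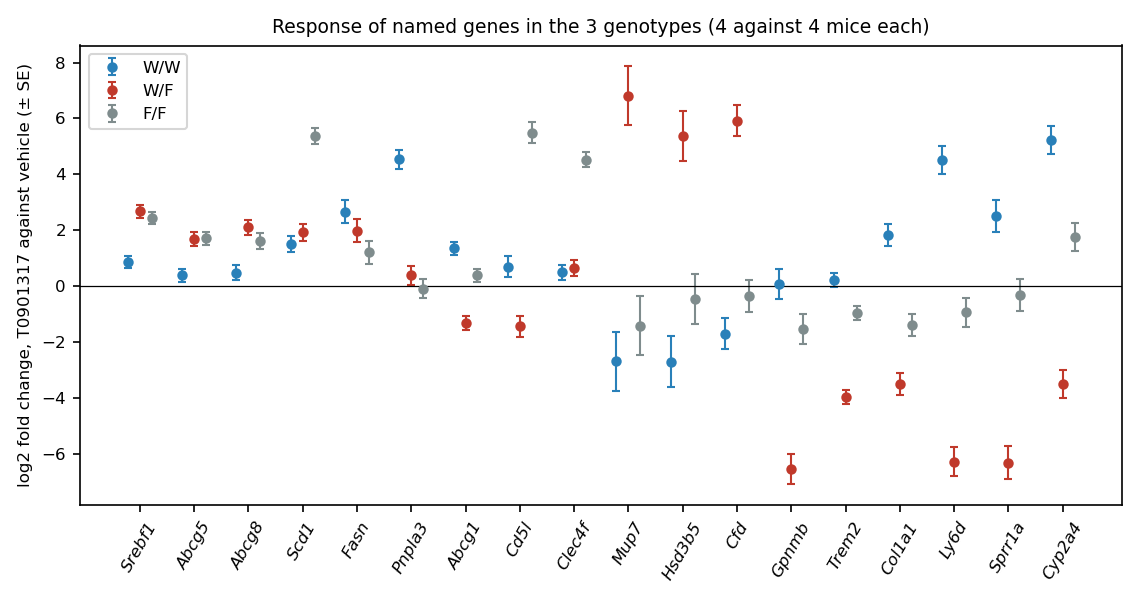
Log2 fold change (T0901317 against vehicle) ± SE of 18 genes in W/W (blue), W/F (red) and F/F (grey) livers, 4 against 4 mice in each. W/F and F/F lie together for Srebf1 (2.67 and 2.43) and Abcg5 (1.69 and 1.71), and W/F lies apart from both others for Gpnmb at -6.54.

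Levels in W/F livers of the chow cohort are given beside the diet groups without a test, since diet and cohort cannot be told apart. Gpnmb averaged 0.551 ± 0.103 TPM on chow (SD, n = 4), 435 ± 136 TPM on the MASH diet with vehicle and 10.3 ± 18.2 TPM with T0901317. Col1a1 averaged 4.16 ± 0.285, 126 ± 41.2 and 12.2 ± 10.3 TPM in the same order, and Spp1 106 ± 49.8, 1243 ± 192 and 153 ± 78.6 TPM. In these 3 genes the treated mean lay far nearer the chow mean than the vehicle mean did. Mup7 averaged 5169 ± 1364, 5.07 ± 1.94 and 1792 ± 1899 TPM, and Cyp8b1 492 ± 102, 26.2 ± 11.9 and 285 ± 98.7 TPM, with treatment between the other means. Srebf1 averaged 49.6 ± 14.3, 61.8 ± 13.2 and 396 ± 57.7 TPM, Scd1 38.3 ± 18.0, 514 ± 138 and 1900.2 ± 242 TPM, and Cfd 4.93 ± 4.99, 1.21 ± 0.535 and 146 ± 73.6 TPM. For Srebf1, Scd1 and Cfd the treated mean was above both others.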

How the data were processed

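Liver polyA RNA was sequenced in 36 libraries of 9 groups, 4 per genotype, diet and treatment, and the deposited values are TPM (transcript abundances per length, scaled to a sum of 1000000) for 49315 genes in all libraries. The submitters' processing notes name Trimmomatic 0.36, STAR 2.5.2b and featureCounts of Subread 1.5.2 and the builds GRCm38 and mm10; how the authors turned counts into TPM is not given in the sources used here. TPM times exon length fell on whole reads (within 0.1 of a read) for 92.9% to 94.9% of values under 20 reads, which gave depths of between 18100000 and 35800000 gene-assigned reads over the series.

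A gene that reached 1 TPM in no fewer than 4 libraries was fitted with limma 3.58.1 (R 4.3.3, trend) on log2(TPM + 1), so fold changes of low genes are understated. All 9 groups entered 1 fit with 27 residual degrees of freedom. Each contrast was adjusted over all 16638 genes by the Benjamini-Hochberg method at 0.05, two-sided. Rescaling divided each library by its median ratio to the geometric means of 14786 genes. The fit was also run on simulated libraries with independent noise and a small set of genes changed equally in both directions. These libraries held no shift in scaling, so that run cannot speak to the effect of rescaling.

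The 40 gene lists (27 of processes, 13 of cell types) held 628 genes, of which 627 were in the table and 596 passed the filter. The group compared, the members and the lists were chosen with earlier results of these data known. Largest changes were the 12 rises and 12 falls among 3408 eligible genes: called as deposited, rescaled and without treated mouse 2, a mean of at least 5 TPM, no overlap, at most 2 per symbol stem. Further genes were 19 set by name, up to 4 called members per direction of a list, members of lists of at most 12 genes, and the 5 largest differences between genotypes of each sign. Acaca, Acly, Acta2, Apoe, Bst2, Ccr2, Col1a2, Cxcl10, Cyp2b10, Cyp3a11, Elovl6, Fn1, Ghr, Gzmb, Hspa5, Igfals, Krt19, Lpcat3, Lrat, Ly6c2, Mki67, Mlxipl, Plin2, Saa1 and Tnf fall outside this rule and were chosen after their values were seen. Alternatives were a pseudocount of 0.1, a filter of 5 TPM, no filter, rescaling, a replicate block, array quality weights, only the libraries compared and leaving out each mouse. Rescaling without treated mouse 2 and the alternatives to its place between the groups were added after seeing the data. Promoter sequences are from RefSeq, and shared sequence is the share of a gene's 50-base exon stretches found in another gene. Some genes are not reported here.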

Additional observations from a re-analysis of the deposited data

Results flagged for a closer look

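Single mice stood apart from the rest of their group in 11 of 82 tests, made with Dixon's ratio (the gap of the highest or lowest mouse to its neighbour over the group's range, on log2(TPM + 1), against its 95% critical value for 4 mice) for the named genes in each W/F group. Chance gives about 5% of such groups, but the genes came from the same livers, so the tests were not independent. In 10 of the 11 it was treated mouse 2 that was highest of its group. That this library sat toward the vehicle mice was known beforehand, so the count describes it and adds no separate evidence. The ratios were 0.884 for Gpnmb, 0.947 for Trem2, 0.885 for Lgals3, 0.904 for Clec7a and 0.913 for Cd14, which are macrophage genes. They were 0.933 for the elastase Mmp12 and 0.921 for the protease inhibitor Timp1, 0.833 for the acute phase protein Lcn2, 0.926 for the chemokine Ccl2 and 0.860 for Ly6d. The other was Fasn, highest in vehicle mouse 1, just past the critical value (0.8291).

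The response of W/F livers differed from that of W/W livers, by limma's test of the difference, most strongly on the positive side in Serpina4-ps1 (9.53), Mup7 (9.50), Serpina1e (9.04), Mup11 (8.91) and Hsd3b5 (8.06). On the negative side it did so in Ly6d (-10.78), Sprr1a (-8.80), Cyp2a4 (-8.72), Gstm3 (-7.27) and Fabp5 (-7.00). These are differences of log2 fold changes among eligible genes. From the response of F/F livers it differed most in Mup7 (8.23), Mup15 (7.18), Cfd (6.27), Hsd3b5 (5.81) and Serpina4-ps1 (4.79), and, with the opposite sign, in Cd5l (-6.93), Sprr1a (-6.00), Ly6d (-5.34), Cyp2a4 (-5.25) and H2-M2 (-5.14). Mup7, Hsd3b5, Serpina4-ps1, Ly6d, Sprr1a and Cyp2a4 stood in both sets with 1 sign each.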

How the results depend on the processing

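The counts of genes called higher and lower in W/F livers moved most with the rescaling of TPM. Genes called higher went from 1097 to 3932, and to 4031 when treated mouse 2 was also left out, and genes called lower from 9874 to 4514 and 4486. The share called higher among all calls was 9.999% as deposited and 46.55% rescaled. Of the 10971 genes called as deposited, 51.1% kept their call and direction when rescaled and 96.8% without treated mouse 2. Genes called with at least a 2-fold change numbered 3087 with a pseudocount of 1 and 5062 with 0.1. Leaving out 1 mouse at a time gave 10114 to 10981 genes called, 948 to 1083 higher, 9035 to 9898 lower and 2730 to 3533 with a 2-fold change. The difference from W/W was called for 9726 genes, for 7312 when rescaled and for 9033 to 9877 with 1 mouse left out. The difference from F/F was called for 3191 genes, for 2403 when rescaled and for 5156 with array quality weights. With 1 mouse left out it was called for 1907 (without treated W/F mouse 1) to 4127 (without treated W/F mouse 2). The place of treated mouse 2 over all genes was 73.8%, 66.0% for genes with a 2-fold change, 66.9% rescaled and 61.9% with both.

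Among the genes followed, 4 changed sign with a call in at least 1 of the settings, all with rescaling, and sign changes between values that both missed the threshold are not counted. The change of Nr1h3 went from -0.17 to 0.43, with and without treated mouse 2, that of Nr1h2 from -0.51 to 0.07 (0.02 without mouse 2) and that of Abca1 from -0.17 to 0.42 in both. The change of Hspa5 went from -0.68 to 0.02 when mouse 2 was left out as well. The difference from W/W of Nr1h2 went from -0.60 to 0.05, and to 0.00 without mouse 2. Of 150 genes followed, 137 kept their side of the threshold, and any called direction, when rescaled, 146 without treated mouse 2 and 144 in a fit of the compared libraries alone. The cause of these shifts was not tested.

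Samples of the same number did not pair: their deviations correlated at 0.12, -0.02, 0.00 and -0.06 for numbers 1 to 4. With the replicate number as a block 11030 genes were called in W/F, 9763 in the difference from W/W and 3432 in that from F/F. Of the 150 genes 149 kept their call with the block, and Cyp3a11 passed (adjusted p = 0.048). Depth limited low genes: below 1 TPM a value rests on few reads, and the pseudocount compresses its fold change.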

Other observations

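Counts of further gene groups are read against all genes, of which 6.59% were called higher and 59.3% lower as deposited and 23.6% and 27.1% rescaled. Of 15 Nrf2 antioxidant genes, 14 were called lower and 0 higher as deposited (median -1.63), and 10 and 1 when rescaled. Hmox1, the haem-degrading enzyme, measured 13.7, 59.2, 16.5 and 11.9 TPM in treated mice 1 to 4 and 119.8, 152, 171 and 163 TPM in vehicle mice 1 to 4, and the sulfiredoxin Srxn1 measured 29.0, 63.7, 42.9 and 33.6 against 188, 215, 258 and 330.1 TPM. In both, every treated mouse lay below every vehicle mouse (log2 changes -2.84 ± 0.31 and -2.55 ± 0.30, limma adjusted p = 5.9e-09 and 2.6e-08). Of 18 genes of the unfolded protein and integrated stress response, 13 were called lower and 1 higher, but 3 and 4 when rescaled, both under the shares of all genes. The stress-induced factor Atf3 measured 0.903, 9.25, 0.905 and 0.706 TPM against 45.7, 56.8, 58.0 and 54.6 TPM and fell in both scalings (-4.27 ± 0.37, adjusted p = 1.5e-10; -4.89 without treated mouse 2). The chaperone Hspa5 had a change of -0.68 (adjusted p = 0.031) as deposited and -0.07 (adjusted p = 0.85) rescaled, and it did not pass without treated mouse 1 (-0.59) or 2 (-0.64) or without vehicle mouse 3 (-0.57). The mitochondrial respiratory chain was called higher in 12 of 17 genes as deposited, by small amounts (median 0.26), and in 17 when rescaled (median 0.86), led by the succinate dehydrogenase subunit Sdhb (0.61 and 1.21).

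Glucose genes gave 5 called higher and 9 lower of 17 (8 and 5 rescaled). G6pc, which releases glucose, rose by 1.17 and did not pass without treated mouse 1 (0.99, adjusted p = 0.063). Pck1, of gluconeogenesis, measured 776, 539, 617 and 737 TPM against 1519, 1564, 1882 and 1389 TPM with no overlap (-1.26 ± 0.25, adjusted p = 5.3e-05), and Pkm, the pyruvate kinase of tissues other than liver, fell (-2.58 ± 0.31, adjusted p = 4.3e-08). Of 15 periportal hepatocyte genes 6 were called higher and 4 lower (10 and 3 rescaled), and of 12 pericentral genes 4 and 3 (8 and 1 rescaled). Those higher in the 2 lists included Hal (1.31), which degrades histidine, and Rgn (1.48), a calcium-binding lactonase. Hpd, of tyrosine breakdown, was the hepatocyte marker with the largest rise (2883, 2677, 2572 and 2947 TPM against 783, 821, 796 and 644 TPM; 1.87 ± 0.17, adjusted p = 1.7e-10), and the iron carrier Trf the one with the largest fall (-1.58). Of 14 endothelial markers 5 were called higher and 3 lower as deposited (2 higher without vehicle mouse 3), and 10 and 1 rescaled. The sinusoidal lectin Clec4g was higher, with 31.0, 35.5, 35.9 and 31.8 TPM against 19.5, 13.8, 11.8 and 19.2 TPM (1.046, adjusted p = 7.2e-07). The scavenger receptor Stab1, which macrophages also express, was lower (-1.29, adjusted p = 3.4e-08). Liver complement genes gave 4 called higher and 7 lower of 17 as deposited (median -0.25), and 6 and 2 rescaled (median 0.35). The 7 lower lay under the share of all genes. As deposited C3 was lower (-1.45) and C8b, of the membrane attack complex, higher (1.27). Among 18 clock genes 3 were called lower and 0 higher as deposited, and 0 and 3 when rescaled. Per1, a clock repressor, was the member with the largest called fall (-1.29, adjusted p = 0.012), and its rescaled change of -0.71 did not pass (adjusted p = 0.21). Alas2, the erythroid haem synthase, rose (1.11), while the globin genes Hba-a1 and Hbb-bs did not pass (-0.14 and -0.37, adjusted p = 0.63 and 0.20) and stood at 0.47 and 0.23 rescaled, also without passing.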
